A study of Homo sapiens with 6 samples.

Results

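Across 6 ATAC-seq peak lists of HCT116 cells, 1349 stretches of the genome were open in every library and at least 1500 bp wide once the peaks of all libraries were joined. They were found by merging the lists wherever peaks overlapped by at least 1 bp, on 23 chromosomes (1 to 22 and X), and keeping merged regions that held a peak from all 6 libraries. The 1349 broad regions are 2.29% of 58926 merged regions and 7.93% of the 17009 regions with a peak in every library, called shared regions here. They take up 2.39 of 16.5 Mb of shared sequence, or 14.5%. The other 15660 shared regions, all narrower, serve for comparison. The regions were selected on presence in all libraries and on merged width, so both are described below with no test.

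The series compares 3 libraries from NuMA-depleted cells with 3 from wild-type cells. HCT116 is an established human colon cancer line. The sources used here do not give how or for how long NuMA was depleted, or whether the wild-type cells carry a modified NuMA gene. They also do not tell if replicates of a group were grown separately, so each p-value reflects the spread among these libraries alone, which may be technical.

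ATAC-seq uses a transposase that inserts sequencing adapters where DNA is not wrapped tightly in nucleosomes, and a peak caller then marks stretches with more insertions than their surroundings. Most open stretches are promoters, enhancers or binding sites of insulator proteins, and each usually spans the nucleosome-free gap and the flanking nucleosomes. A broad open stretch can hold several such gaps in a row, as at paired promoters or clustered enhancers. NuMA is a large coiled-coil protein that organises the spindle poles in mitosis and belongs to the nuclear interior in interphase.

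The lists held between 21783 peaks in NuMA-depleted replicate 3 and 45892 in NuMA-depleted replicate 2, and relative depth recovered from the peak statistics ran from 1.07 to 1.21 in NuMA-depleted and from 0.762 to 0.975 in wild-type libraries. This estimate moved with the group without overlap, but it rests on the smallest background and the smallest peak width of each list. Depth in reads was unknown. NuMA-depleted replicate 3, at 1.11, had the lowest median pileup in broad regions, 25 fragments, against 31 to 34 in wild-type libraries. Raw pileups were therefore not taken to be on a common scale, and the tests below use ranks within each library. NuMA-depleted replicates 3 and 2 also stood at the ends for wide peaks, with 71 peaks of 1500 bp or more in NuMA-depleted replicate 3 and 866 in NuMA-depleted replicate 2, against 249 to 329 in the other 4 libraries. Since both are NuMA-depleted, group means of widths hide a wide spread within that group.

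Most wide merged regions were shared ones. Of 1507 merged regions of 1500 bp or more, 89.5% had a peak in all 6 libraries, 124 in 5 libraries, 26 in 4, 8 in 3 and 0 in fewer. Of all 58926 merged regions, 17009 had a peak in all 6. Each list that adds a peak can widen a merged region, so width and the number of libraries are tied by the merge itself. In 106 of the 124 regions called in 5 libraries, the list without a peak was that of NuMA-depleted replicate 3. The median merged width of the broad regions was 1693 bp, with quartiles of 1584 and 1888 bp. Only 218 reached 2000 bp, 37 reached 2500 bp, and the widest spanned 3379 bp.

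The width limit cut through a continuum. There were 398 broad regions of 1500 to 1599 bp and 537 shared regions of 1400 to 1499 bp just outside it. The narrowest inside, at 1500 bp, were chr16:31190919-31192418, chr2:37458093-37459592 and chr17:70972935-70974434. The widest outside, at 1499 bp, were chr14:31434765-31436263, chr15:55581493-55582991 and chr13:100631825-100633323. The fold enrichment of the strongest peak ran from 4.84 to 6.71 over the 6 libraries in the first of these, from 8.04 to 11.5 in the second and from 5.27 to 6.80 in the third. Outside the limit it ran from 5.57 to 10.01, from 7.19 to 11.2 and from 3.50 to 4.57. The last of these ranges lay below all values inside the limit, and the others overlapped them. These examples do not stand for all regions near the limit, and fold by width class is given below.

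The breadth of these regions was seldom seen in all libraries at once. In 347 of the 1349 regions no library had a peak of 1500 bp or more, in 510 exactly 1 library did, and in 23 all 6 libraries did. The regions with such a peak numbered 324 in NuMA-depleted replicate 1, 782 in replicate 2 and 71 in replicate 3. In wild-type replicates 1, 2 and 3 they numbered 286, 243 and 261. For 343 regions, 25.4% of all, NuMA-depleted replicate 2 was the only library with a peak that wide. The name broad therefore describes the joined outline of 6 lists.

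The length under peaks differed most between the NuMA-depleted libraries themselves. The median length of a broad region under peaks was 1309, 1550 and 901 bp in NuMA-depleted replicates 1, 2 and 3. In wild-type replicates 1, 2 and 3 it was 1276, 1241 and 1234 bp. The wild-type values lay close together and inside the range of the NuMA-depleted ones. As a share of the merged width, the library medians averaged 72.7% ± 20.7 (SD, n = 3) in NuMA-depleted cells and 71.4% ± 1.11 (SD, n = 3) in wild-type cells, a difference of 1.33 percentage points that is smaller than the spread between NuMA-depleted replicates. Without NuMA-depleted replicate 2 that difference was -8.28, and without NuMA-depleted replicate 3 it was 12.3. In the narrower shared regions, too, the longest and shortest medians were those of NuMA-depleted replicates 2 and 3, at 771 and 489 bp. NuMA-depleted replicate 2 had the longest cover in 729 of the broad regions, and NuMA-depleted replicate 3 the shortest in 814.

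**Figure D1:**
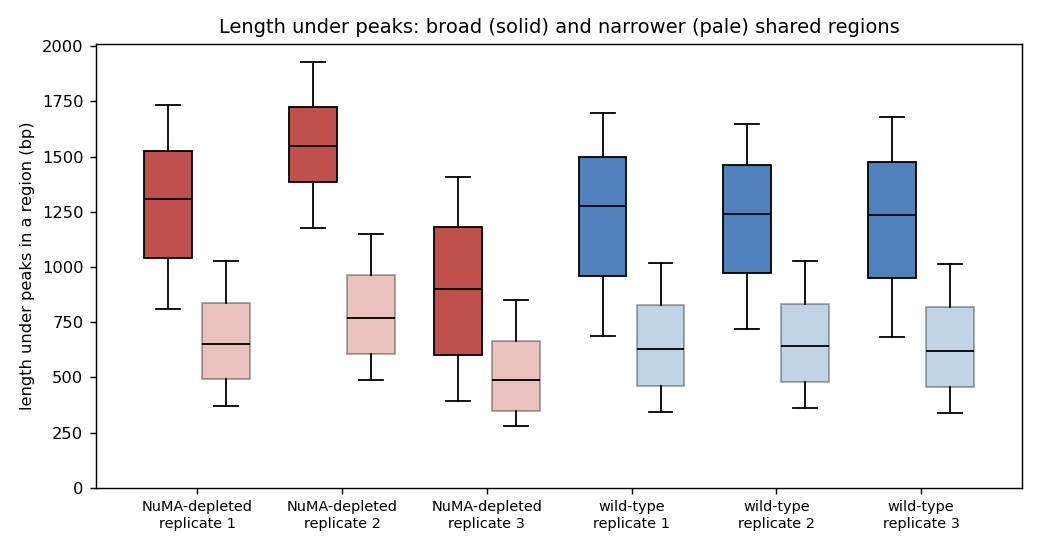
Length under peaks in a region (bp) by library, for the 1349 broad regions (solid boxes) and the 15660 narrower shared regions (pale boxes), NuMA-depleted in red and wild-type in blue. Boxes span the quartiles with the median as a line and whiskers reach the 10th and 90th percentiles. The 3 wild-type medians for broad regions sit between 1234 and 1276 bp, and the NuMA-depleted medians spread from 901 to 1550 bp.

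The stretch that all 6 libraries agreed on was much shorter than the outline. The sequence under peaks in every library had a median of 635 bp per broad region, 35.6% of the merged width at the median, against 381 bp and 47.3% in narrower shared regions. It reached 1000 bp in 280 broad regions and 1500 bp in 21. In 54 broad regions no base lay under a peak of all 6 libraries, although each library had a peak somewhere in the region.

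The strongest summit moved more between libraries in broad regions than in narrower ones. The distance between the outermost of the 6 summits had a median of 355 bp in broad and 156 bp in narrower shared regions. In 40.8% of broad regions it was over 500 bp, against 6.95% of narrower ones, and it was within 100 bp in 11.6% against 30.8%. A wider region leaves more room for a summit to move, so this comparison describes the regions and does not test them. In 35 broad regions (2.59%) the summits of the groups did not overlap and their medians lay more than 500 bp apart, against 0.494% of all shared regions.

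Splitting into several peaks was frequent among broad regions. In all, 635 broad regions (47.1%) were a single peak in each of the 6 libraries, against 96.5% of the narrower shared regions. The others were split into 2 or more peaks in 1 library (272 regions), 2 libraries (190), 3 (122), 4 (81), 5 (46) or all 6 (3). Most splits were thus present in some libraries and absent in others. Across libraries there were 1622 gaps between peaks of the same broad region, with a median of 408.5 bp and a range of 191 to 1503 bp.

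Split regions were fewer in the NuMA-depleted lists, chiefly in replicate 2. The share of broad regions split into 2 or more peaks was 21.1%, 7.71% and 17.1% in NuMA-depleted replicates 1, 2 and 3. It was 25.3%, 27.9% and 18.8% in wild-type replicates 1, 2 and 3. The ranges 7.71 to 21.1% and 18.8 to 27.9% overlapped. The group means were 15.3% ± 6.89 (SD, n = 3) and 24.0% ± 4.70 (SD, n = 3). Without NuMA-depleted replicate 2 the difference of -8.65 percentage points was -4.84. It became 0.248 when each library was reduced to the same number of its strongest peaks, 21783. The reduced lists were merged again, so this value is over a different set of broad regions. The part of list length in the difference cannot be told apart from that of the groups in the full lists.

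Few regions were split in every library of 1 group but in no library of the other. Of the 1349 broad regions, 14 were split in all wild-type and no NuMA-depleted libraries. Of all 17009 shared regions, which include these, 20 were (0.118%). Since 96.5% of narrower shared regions were a single peak in every library, they had little part in these counts. Without NuMA-depleted replicate 2, the library with the fewest splits, the count of broad regions was 18 in that direction and 12 in the opposite one. Over all shared regions it was 26 and 15. With all libraries, 1 broad region was split in all NuMA-depleted and no wild-type libraries, and 0.00588% of shared regions were. That region, chr1:111745116-111747409, was named after its values were seen. It had 1302, 1831 and 1488 bp under peaks in NuMA-depleted replicates 1, 2 and 3, and 2220, 1113 and 1837 bp in wild-type replicates 1, 2 and 3. The lengths of the groups overlapped.

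The regions with the greatest merged width were assembled from several peaks. The widest, chr17:46100787-46104165, was split into 2 peaks in all 6 libraries. The length under its peaks was 2382, 3046 and 1090 bp in NuMA-depleted replicates 1, 2 and 3 and 1393, 1917 and 2902 bp in wild-type replicates 1, 2 and 3. In 5 libraries the gap lay towards the same end of the region and in wild-type replicate 3 towards the opposite end, so the outline joins peaks that no library had in that form. The other broad regions split in all 6 libraries were chr2:17720032-17722063 and chr10:80732381-80734767, at widths of 2032 and 2387 bp, both named after their values were seen.

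Several of the 10 widest regions owed their outline to 1 or a few libraries. At chr1:229365011-229367713, 2703 bp wide, NuMA-depleted replicate 2 had a peak of 2277 bp while the other libraries had 357 to 643 bp under peaks, and no base was shared by all 6. At chr3:156845767-156848569, 2803 bp wide, the lists held 14 peaks in all, with 2, 1 and 2 in NuMA-depleted replicates 1, 2 and 3 and 3 in each wild-type library. At chr6:10412816-10415585, 2770 bp wide, the length under peaks ran from 235 bp in NuMA-depleted replicate 3 to 2171 bp in NuMA-depleted replicate 2. At chr3:156845767-156848569 the length under peaks was 1678, 2758 and 1589 bp in NuMA-depleted and 1640, 1571 and 1335 bp in wild-type replicates 1, 2 and 3. In all 3 of these regions the lengths of the groups overlapped.

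Other broad regions were wide in each library alone. The region chr14:90420708-90423023, 2316 bp wide, was a single peak of 2184, 2218 and 2082 bp in NuMA-depleted replicates 1, 2 and 3 and of 2233, 2289 and 2227 bp in wild-type replicates 1, 2 and 3. Its 6 summits lay within 128 bp, and 2066 bp were under a peak in all libraries. The region chr19:42462026-42463853 varied least among the 5 regions with the longest such peaks, at 1755 to 1796 bp, although its summits lay up to 1029 bp apart. The other regions of this kind were chr6:82461474-82463984, chr19:54693223-54695387 and chr16:77245981-77248301, each a single peak of at least 1810 bp in every library.

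The region with the highest weakest q-value among broad regions was chr6:58776530-58779440, 2911 bp wide. Its weakest −log10 q over the 6 libraries was 111.5, while the next highest among broad regions was 33.5, at chr14:59949440-59951497. The number of fragments stacked at the summit, called the pileup, was 368, 488 and 441 in NuMA-depleted replicates 1, 2 and 3 and 341, 224 and 283 in wild-type replicates 1, 2 and 3. The local background, the number of fragments the caller expected there, was also far above other regions, at 28.6 to 61.0 fragments. The fold enrichment was therefore ordinary at 7.15 to 8.59. All 6 summits lay within 17 bp, 2491 bp were under peaks in every library, and the nearest other merged region was 488769 bp away. The sources used here do not say whether artefact-prone regions had been removed from the lists.

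**Figure D2:**
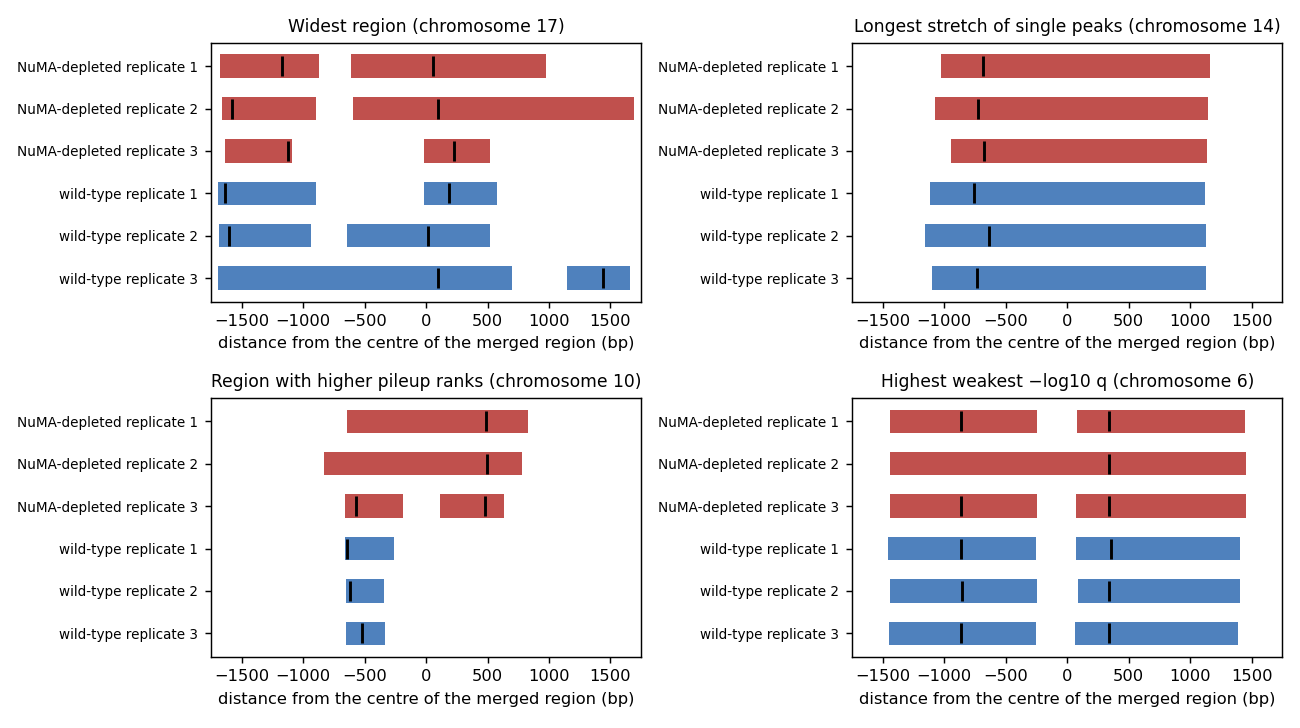
Peaks (bars) and their summits (black ticks) by library in 4 broad regions, with the x axis as the distance in bp from the centre of the merged region, NuMA-depleted in red and wild-type in blue. The chromosome 17 region is split in every library, the chromosome 14 region is a single peak of 2082 to 2289 bp in each, the chromosome 10 region is longer in all NuMA-depleted libraries, and the chromosome 6 region repeats nearly the same outline in all 6.

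Broad regions were not the strongest by fold enrichment, which is column 7 of the lists. The fold is the authors' value for each peak, it belongs to its own list, and the strongest peak stands for a region. The median fold of broad regions was 7.01, 6.65 and 5.94 in NuMA-depleted replicates 1, 2 and 3 and 6.68, 7.53 and 6.88 in wild-type replicates 1, 2 and 3. The corresponding medians of narrower shared regions were 8.37, 8.28 and 6.48, and 7.76, 8.86 and 7.92, higher within each of the 6 libraries. Ranked among all shared regions of the same library, the median broad region stood at the 22.8th to 38.6th percentile of fold. The top 10% by fold held 0.815% to 3.56% of broad regions, against 10.6% to 10.8% of narrower ones, and no broad region had a fold above 14.9.

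Pileup and local background gave the opposite order. The median pileup of broad regions was 37, 50 and 25 fragments in NuMA-depleted replicates 1, 2 and 3 and 31, 34 and 31 in wild-type replicates 1, 2 and 3. For narrower shared regions it was 33, 44 and 22, and 27, 30 and 27. Broad regions thus stood at the 60.3rd to 63.6th percentile of pileup. Their median local background was 4.19, 6.51 and 3.29 fragments in the NuMA-depleted and 3.70, 3.57 and 3.61 in the wild-type replicates, at the 74.6th to 78.1st percentile. By −log10 q the median broad region stood near the middle, at the 44.2nd to 51.0th percentile.

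Local background rose with each step in width, while fold was highest from 500 to 1499 bp and lowest from 1500 bp on. From shared regions under 500 bp to those of 2000 bp or more, the median percentile of pileup rose from 28.4 to 32.1 over the libraries up to 62.4 to 66.8. The local background rose from 24.0 to 31.3 up to 83.1 to 86.8. Between the neighbouring classes of 1000 to 1499 and 1500 to 1999 bp the pileup changed little, from 57.3 to 60.5 over the libraries to 58.4 to 63.6. The fold stood at 41.7 to 47.1 in the narrowest regions, 49.6 to 55.7 at 500 to 999 bp, 49.3 to 55.2 at 1000 to 1499 bp, 25.3 to 40.9 at 1500 to 1999 bp and 13.6 to 28.8 at 2000 bp or more. The low fold of broad regions thus came with a high background and not with a low pileup, in each of the 6 libraries. Fold is computed from these same quantities, and the part in it of fragments from the region itself entering its background was not tested.

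**Figure D3:**
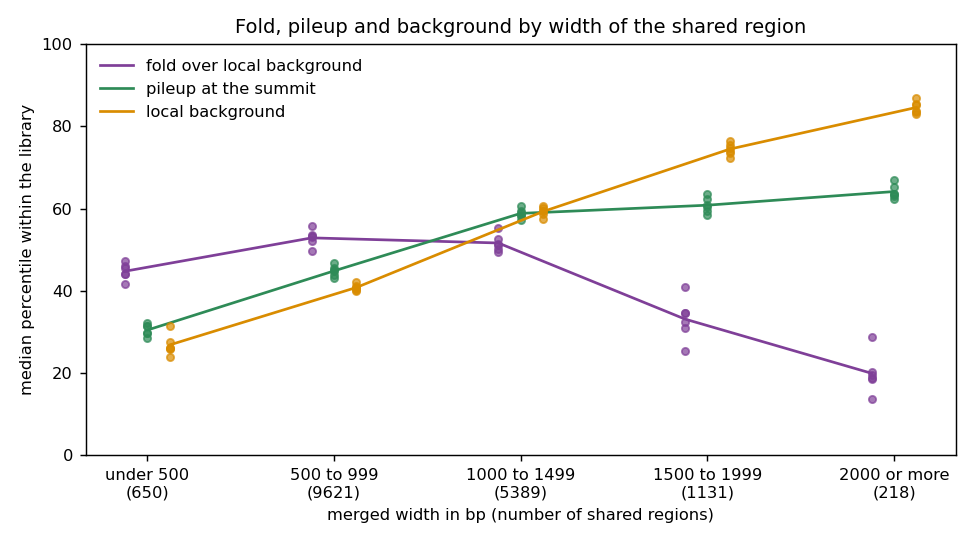
Median percentile within a library (y axis, among the 17009 shared regions) of fold, pileup and local background by merged width (x axis, bp), with 1 point per library and a line through the mean of the 6 libraries. Background rises to 83.1 to 86.8 in regions of 2000 bp or more, while fold falls to 13.6 to 28.8.

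No broad region passed the test for a difference between NuMA-depleted and wild-type cells in the rank of its fold. Ranks among shared regions were turned into normal scores (the position on a standard normal curve, in SD units) and compared with limma with Benjamini-Hochberg adjustment over all 17009 regions. Of the broad regions 0 passed an adjusted p of 0.05, where 1 of all shared regions did (0.00588%). By limma's unadjusted p under 0.05, 49 broad regions passed, or 3.63%, against 8.09% of all shared regions. The smallest adjusted p of a broad region was 0.266. The median difference, NuMA-depleted minus wild-type, was -0.03 over broad regions and -0.0039 over all shared regions, with a median SE of 0.41 for a broad region.

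The regions with the smallest p-values in this fit give the size of differences that did not pass. At chr3:196229197-196230950 the fold was 6.27, 7.16 and 6.01 in NuMA-depleted replicates 1, 2 and 3 and 8.93, 10.6 and 11.2 in wild-type replicates 1, 2 and 3. The groups did not overlap, and the limma difference was -1.57 with an SE of 0.42 and an adjusted p of 0.266. At chr4:74733688-74735377 the fold was 5.91, 7.52 and 4.86 against 10.4, 9.38 and 8.40, again without overlap, with a limma adjusted p of 0.346. At chr1:68961406-68963230 it was 8.85, 8.85 and 8.41 against 11.7, 12.3 and 11.9, with a limma adjusted p of 0.408. In the opposite direction, the smallest p was at chr17:79668998-79670830, with folds of 7.60, 7.29 and 6.03 against 3.93, 4.42 and 6.43. There the groups overlapped, and the limma adjusted p was 0.374. This region met the width limit only through the peak of NuMA-depleted replicate 2, which joined parts that were apart in the other lists.

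Ranking the same regions by pileup instead, a choice made after seeing the data, gave a few calls. By limma with Benjamini-Hochberg adjustment, 3 broad regions passed, 2 higher and 1 lower in NuMA-depleted cells, where 1.27% of shared regions did (216 of 17005 with a recovered pileup in all libraries). The 3 are 0.222% of the broad regions, below that background. By limma's unadjusted p under 0.05, 8.08% of broad regions passed, against 12.8% of shared regions. Ranked by −log10 q, 1 broad region passed, where 0.306% of shared regions did, and 6.75% against 10.3% passed unadjusted. On each of these scales the share of broad regions that passed was below that of all shared regions, a difference that was not tested.

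The smallest adjusted p by pileup rank was at chr10:74079305-74080961, 1657 bp wide, a region named after its values were seen. It met the width limit of 1500 bp only through its NuMA-depleted peaks. Its pileup was 48, 54 and 35 fragments in NuMA-depleted replicates 1, 2 and 3 and 22, 17 and 16 in wild-type replicates 1, 2 and 3. All NuMA-depleted libraries were above all wild-type ones, including NuMA-depleted replicate 3 with its short list. The limma difference in pileup rank was 1.89 with an SE of 0.33 and an adjusted p of 0.000675. Leaving out any library in turn, a replicate block, a mean trend or a stricter peak threshold gave limma adjusted p from 6.16e-05 to 0.0114. The fits without a library kept the outline of all 6 lists, so they are no independent support. The pileup is that of the strongest peak in each library, and these summits lay at different places in the groups, as given below. The rank of −log10 q also passed in limma, with an adjusted p of 0.0222. The fold was 6.75, 5.36 and 6.44 against 5.16, 4.83 and 4.38, and its rank did not pass (limma adjusted p = 0.548). The raw local background was higher too, at 6.25, 9.26 and 4.59 against 3.46, 2.72 and 2.88 fragments. The library medians for broad regions were 4.19, 6.51 and 3.29 against 3.70, 3.57 and 3.61 fragments.

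The shape of this region differed with the group as well. Its outline was set by NuMA-depleted peaks, and merged width chose the broad regions, so these lengths are described with no test. The length under peaks was 1470, 1608 and 998 bp in NuMA-depleted replicates 1, 2 and 3 and 398, 307 and 321 bp in wild-type replicates 1, 2 and 3. In the wild-type libraries the peak ended at most 564 bp from the start of the merged region, with its summit 185 to 310 bp from that start. In the NuMA-depleted libraries the strongest summit lay 1305 to 1323 bp from the start, in sequence with no wild-type peak. In NuMA-depleted replicate 3 the region was split, with a second, weaker peak that began 168 bp from the start, where the wild-type peaks lie. The NuMA-depleted lists thus held most of the wild-type stretch and, beside it, one with a stronger summit that was not called in wild-type cells.

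A difference in length of this size was rare. The length under peaks was longer in all NuMA-depleted than in all wild-type libraries in 60 broad regions (4.45%), against 4.09% of shared regions. It was shorter in 47 (3.48%), against 3.22% of shared regions, so broad regions stood near the background in both directions. In 2 broad regions each NuMA-depleted library had over 2 times the length of each wild-type library, against 0.0529% of shared regions, and in 0 the reverse, as in 0.00% of shared regions. Both met the width limit of 1500 bp only through their NuMA-depleted peaks. The limit used these same lengths, so the counts are described with no test. The other of these regions, chr10:93411954-93413514, was named after its values were seen. It had 1247, 1311 and 931 bp under peaks in NuMA-depleted and 323, 383 and 358 bp in wild-type replicates 1, 2 and 3. Its pileup of 26, 37 and 12 against 26, 25 and 23 fragments overlapped between groups, and its summits lay within 126 bp. Here the NuMA-depleted peaks were longer around the same summit, and neither fold rank (limma adjusted p = 0.653) nor pileup rank (limma adjusted p = 0.520) passed.

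The calls at the other broad regions called by pileup rank were lost when most single libraries were left out, while the differences kept their direction. At chr10:104404383-104406475, 2093 bp wide, the pileup was 70, 94 and 49 fragments in NuMA-depleted and 40, 38 and 39 in wild-type replicates 1, 2 and 3. It met the width limit only through the peak of NuMA-depleted replicate 2, its highest pileup, which joined parts that were apart in the other lists. The limma difference was 1.23 with an SE of 0.31 and an adjusted p of 0.0343. Leaving out any 1 of the 6 libraries raised the adjusted p to between 0.0673 and 0.163, with differences of 1.09 to 1.31. These fits kept the outline of all 6 lists, so the selection by width was not repeated. The region chr1:90097894-90099487, 1594 bp wide, met the width limit of 1500 bp only through its wild-type peaks. Its pileup was 29, 45 and 16 in NuMA-depleted and 43, 34 and 44 in wild-type replicates 1, 2 and 3. These pileups overlapped between the groups, but their percentiles did not, at 37.7, 50.6 and 21.5 against 88.5, 60.3 and 90.4. The limma difference was -1.28 with an SE of 0.34 and an adjusted p of 0.0391, which held without wild-type replicate 2 (0.0196) and rose to between 0.0565 and 0.188 without each of the other 5 libraries. The difference ran from -1.61 to -1.07 over these fits.

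**Figure D4:**
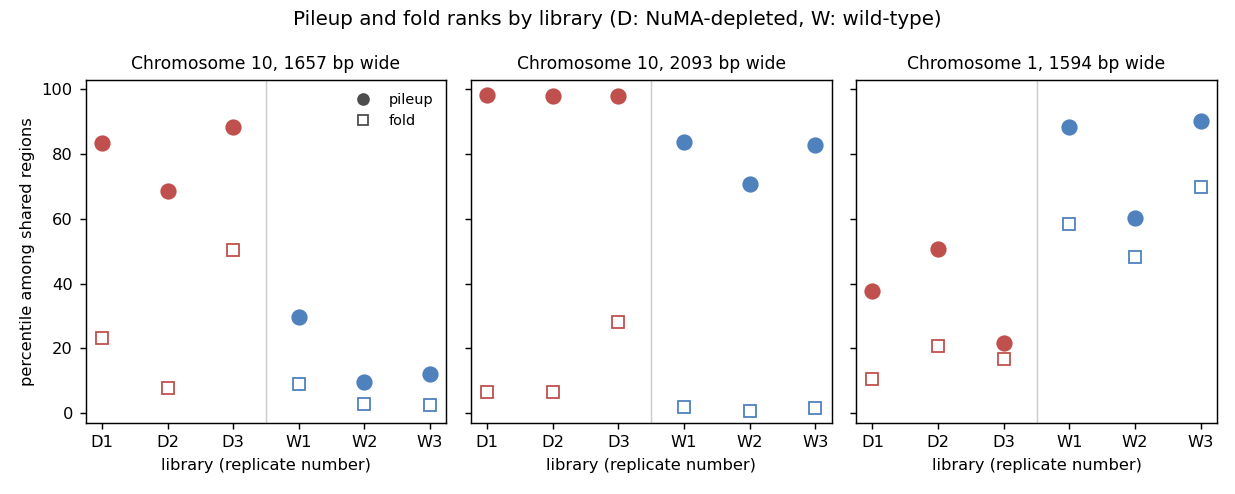
Percentile of pileup (filled circles) and of fold (open squares) among shared regions (y axis) in each library (x axis, D for NuMA-depleted and W for wild-type with the replicate number) at the 3 broad regions called by pileup rank. In the first region the pileup percentiles are 68.6 to 88.4 in NuMA-depleted and 9.61 to 29.6 in wild-type libraries. Each of the 3 met the width limit only through peaks of the group in which its pileup rank was higher.

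Broad regions were spread over all 23 chromosomes, at uneven shares of the shared regions. The share was highest on chromosome 5, with 86 of 819 shared regions (10.5%), followed by chromosome 14 with 10.2% and chromosome 4 with 10.1%. It was lowest on chromosome X, with 11 of 339 (3.24%), then chromosome 20 with 5.28%, chromosome 22 with 5.37% and chromosome 18 with 5.52%. Chromosome 1 held the largest number, 132, at a share of 7.73% close to that of all chromosomes together. All values are from the same 6 lists of a single line, whose copy number was not analysed here, and the order was not tested.

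**Figure D5:**
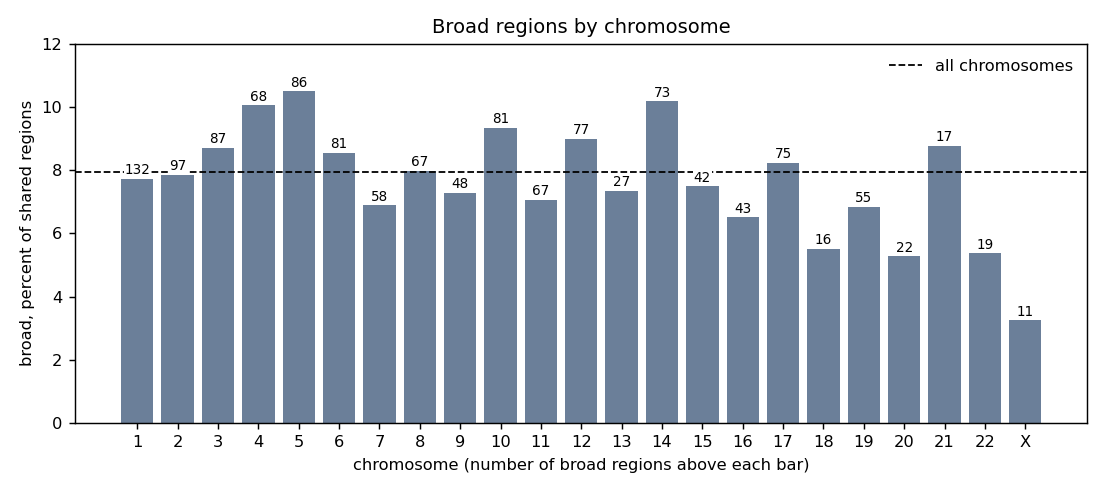
Broad regions as a percent of shared regions (y axis) by chromosome (x axis), with the number of broad regions above each bar and a dashed line at 7.93% for all chromosomes. Chromosome 5 is highest at 10.5% and chromosome X lowest at 3.24%.

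Broad regions had about as many neighbours as narrower shared ones. The nearest other merged region lay at a median of 10790 bp from a broad region and 10198 bp from a narrower one. No other region lay within 10 kb of 53.6% of broad and 50.7% of narrower regions, and the median number of neighbours within 50 kb was 3 for both. The nearest other broad region was a median of 453 kb away. It lay within 100 kb for 280 broad regions and within 10 kb for 26.

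On the scale of 1 Mb bins, 929 of 2318 bins that held a shared region held a broad one (40.1%), and 634 of these held exactly 1. Only 31 bins held 4 or more. The fullest was on chromosome 16 between 31 and 32 Mb, with 6 broad among 20 shared regions. Which genes, promoters or repeats they overlap was not analysed here, since no annotation or genome of build hg19 was used.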

How the data were processed

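Each of the 6 libraries had 1 deposited peak list. The submitters' processing notes name build hg19 and the tools Picard, Trim Galore and Bowtie2 (version 2.4.1). Peak names in the deposited files record a macs2 folder, but the sources used here do not give the caller's version and settings, read filters or any shift for the transposase. For each peak the deposited lists give the fold (a linear ratio over the caller's local background), the −log10 p-value and −log10 q-value, and a score that was not used. Peaks were called per sample.

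Lists were merged in Python 3.11.15 with pandas 2.3.3, numpy 2.4.6 and scipy 1.17.1, and drawn with matplotlib 3.10.9. Coordinates are those of hg19, counted from 1. Pileup and local background were recovered from fold and p under a Poisson model with 1 added to both, and a whole-number pileup was found within 0.01 on the −log10 p scale for at least 99.986% of peaks in each library. Depth in reads remained unknown. Relative depth is the smallest background divided by the smallest peak width. Fold ranks within each library, as normal scores, were compared with limma 3.58.1 in R 4.3.3, all 6 libraries, without covariates, at an adjusted p of 0.05. The fit and the pileup recovery were tried on simulated data. The simulated shifts were far larger than the median absolute difference in fold rank of broad regions, 0.27, so smaller differences were not covered. The simulated pileups did not reach those of the chromosome 6 region.

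The regions, lists and tests were chosen with earlier results of these data known. Regions named were the 10 widest, the 5 with the highest weakest q, the 5 with most peaks, the 5 widest as single peaks in all libraries, the 5 with the smallest p in each direction and the 3 on either side of the width limit, from which examples are printed, beside those said to be named after their values were seen. Alternatives covered the peak threshold, list length, joining distance, overlap, width limit, autosomes, measure, replicate block, moderation and leaving out each library. Gene lists, cell type markers, start sites and motifs were not analysed, since no annotation of hg19 was used here.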

Additional observations from a re-analysis of the deposited data

How the results depend on the processing

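The number of broad regions was 218 at a width of at least 2000 bp, 6738 at 1000 bp, and 548 where each library had to cover 50% of the region. Leaving out 1 library gave 973 to 1427 regions, with the lowest value without NuMA-depleted replicate 2. The group difference in split regions, -8.65 percentage points, was 0.248 at equal numbers of peaks, -16.4 at 2000 bp or more, and -11.6 to -4.84 without 1 library. At equal numbers of peaks the lists were merged again, which gave a different set of broad regions. The difference in covered share ran from -8.28 to 12.3 and that in fold percentile from -5.72 to 2.18 without 1 library, so neither had a stable direction. By limma fold rank, the 1 call among all shared regions became 2 on centred log2 fold, 52 by q rank and 216 by pileup rank. It was 0 by the mean of a region's peaks, at −log10 q of at least 5, with the replicate block, and without any 1 library (0 to 0). Among broad regions the 0 calls became 1 by q rank and 3 by pileup rank. By pileup rank, leaving out 1 library gave 86 to 176 calls among all shared and 1 to 4 among broad regions, and the replicate block left 1 broad region. Same-numbered libraries did not deviate together (correlations -0.029, -0.015 and -0.019), so the numbers were not treated as pairs. The overlap with start sites was not run. The cause of these changes was not tested. Read depth was unknown, and fits without 1 library rest on fewer samples.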
